A study of Mus musculus with 93 samples.

Results

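Neural retinas of 9-month-old female mice that were homozygous for a knock-in allele of Efemp1 (Efemp1ki/ki) were compared with neural retinas of wild-type (Wt) females of the same age. The members are the 16 libraries whose labels give neural retina and 9 months, 8 of each genotype, out of 93 libraries in the series. The remaining libraries are retinas of the same genotypes at 3 and 17 months and posterior eyecups, which are eyes from which lens and retina were removed. The labels state that no treatment was given and name no strain or litter. The series presents the knock-in as a mouse version of an inherited macular disease, Doyne honeycomb retinal dystrophy, in which deposits form beneath the retinal pigment epithelium. The labels do not say whether each library is a different mouse, so the p-values measure only the spread between libraries, which may be technical. RNA came from whole retina, in which fewer cells of a type and less RNA per cell cannot be told apart.

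Efemp1 encodes fibulin-3, a secreted glycoprotein of the extracellular matrix. The title of the series puts complement factor B at the centre of the disease model. Complement is a cascade of plasma proteins that many tissues also make locally: C1q or lectins open the classical and lectin routes through C4 and C2, factor B and factor D drive the alternative route, and both end in cleavage of C3. Interferons act through receptors that activate transcription factors, among them STAT2 with IRF9, which bind promoters of antiviral and antigen-presentation genes. In the retina, glia, microglia and neurons can all respond in this way.

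Each library held between 11243187 and 26518183 estimated counts, and 2-sided exact permutation tests between genotypes gave p = 0.661 for the library total, 0.952 for the number of genes with a count and 0.296 for the slope of counts on GC content (at least 0.591 after adjustment over 4 measures). Crx, a transcription factor that defines photoreceptors, ran from 826 to 955 counts per 1000000 (CPM) in wild type and from 851 to 945 CPM in knock-in. Wild-type library 7 stood apart from its group, with the largest median deviation over genes among the 16. Genes of the lens list had a mean level above 0 log2 CPM in 5 of the 16 libraries, called the libraries with lens transcripts below. These were wild-type library 4 and knock-in libraries 3, 4, 6 and 8, at 1.59, 1.24, 0.14, 5.84 and 0.96 log2 CPM, while the other 11 lay between -2.07 and -1.03. Whether the lens transcripts came from lens tissue was not tested, nor was their part in the results below. List values that moved when the 5 libraries were left out are given beside the lists described.

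No gene passed the test between genotypes at 9 months. Expression was modelled with edgeR's quasi-likelihood test over 17240 genes in the 48 retina libraries, and a gene counted as called when its Benjamini-Hochberg adjusted p was below 0.05. At that threshold 0 genes were called (0% of genes tested) and the lowest adjusted p was 0.722. At an unadjusted p below 0.05 there were 1047 genes (6.07%), 485 higher (2.81%) and 562 lower (3.26%) in the knock-in. DESeq2 called 0 with 1049 at an unadjusted p below 0.05, limma voom 0 with 1031, and limma on log2(TPM + 1) 0 with 866. Without the 5 libraries with lens transcripts edgeR called 0 with 363, against which list counts without those libraries are to be read. The same test called 316 genes (1.83%) at 3 months and 70 (0.406%) at 17 months.

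Intervals were narrow for most genes. The 95% interval of the log2 fold change (knock-in over wild type, negative where the knock-in is lower) had a median half-width of 0.154. It lay inside ±0.5 for 80.9% of genes and inside ±1 for 97.1%. Among the 9051 genes with a mean of at least 4 log2 CPM it lay inside ±0.5 for 98.8%, and among the 1724 genes with a mean below 0 log2 CPM for 4.64%. For most of the scarce genes a difference of 0.5 was therefore not detectable at this depth and spread.

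Efemp1 itself (chr11:28853204-28926743, in the GRCm38 coordinates of the deposited tables) ran from 59.8 to 78.1 CPM in wild type, with a median of 68.0, and from 48.9 to 76.9 CPM in knock-in, with a median of 66.7. The groups overlapped almost throughout, and the log2 fold change was -0.07 ± 0.09 (SE, unadjusted p = 0.406 in edgeR). Counts per gene do not distinguish the knock-in allele from the wild-type one, so this level does not check the genotype labels.

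Cfb, which encodes complement factor B (chr17:34856374-34862518), ran from 6.30 to 9.64 CPM in wild type, with a median of 7.31. In knock-in retinas it ran from 7.30 to 8.77 CPM, with a median of 8.07. All 8 knock-in values lay within the range spanned by the wild-type libraries. The log2 fold change was 0.10 ± 0.08 (SE, 95% interval -0.06 to 0.27, unadjusted p = 0.22 in edgeR), so a rise of 0.5 lay outside the interval.

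C4b was the complement gene that stood furthest from 0. It encodes the C4 chain shared by the classical and lectin routes (chr17:34728380-34743882). Wild-type libraries 1 to 8 gave 20.98, 34.51, 23.90, 23.76, 25.18, 20.54, 37.11 and 16.48 CPM. Knock-in libraries 2 to 9 gave 19.40, 55.37, 59.20, 36.68, 41.46, 29.34, 45.71 and 35.26 CPM. The groups overlapped: knock-in libraries 3, 4, 6 and 8 exceeded every wild-type library, while knock-in library 2 lay below 7 of the 8. The 4 that exceeded them are the 4 knock-in libraries with lens transcripts, whose part in the difference was not tested. The log2 fold change was 0.67 ± 0.17 (SE, 95% interval 0.33 to 1.02), with an unadjusted p of 0.000312 and an adjusted p of 0.722 in edgeR. Without the 5 libraries with lens transcripts it was 0.25 (unadjusted p = 0.221), and with single libraries left out it stayed between 0.57 and 0.77. C4a, the neighbouring and nearly identical copy, was at 3.96 ± 0.72 CPM in wild type and 4.57 ± 0.78 CPM in knock-in (SD), a log2 fold change of 0.22. Reads of the pair may have been divided between the copies, and the sum of both was not tested.

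The other complement components differed less. Of 30 listed, 16 had enough counts to be tested, and 14 of them had a log2 fold change above 0 (50.3% of all genes did). Of the 16, 1, C4b, had an unadjusted p below 0.05 (2.81% of all genes were higher at that threshold). Their median log2 fold change was 0.136, against 0.00077 over all genes. C3, the component at which the routes meet, ran from 2.53 to 6.09 CPM in wild type and from 3.83 to 8.28 CPM in knock-in, with medians of 4.97 and 5.67 (log2 fold change 0.28 ± 0.21, SE). C2, the classical protease, had 0.20 ± 0.22 and C1ra, a protease of the C1 complex, 0.23 ± 0.17. C1qa, a chain of the recognition molecule made by microglia, averaged 7.41 ± 0.89 CPM in wild type and 7.40 ± 0.99 CPM in knock-in (SD). Without the 5 libraries with lens transcripts 8 of the 16 lay above 0 and the median was -0.006. Of the lytic components C8g was tested, with a log2 fold change of -0.062 over all 16 libraries. The lytic components Hc, C6, C7, C8a, C8b and C9 and factor D (Cfd) did not reach the count filter. None of these exceeded 0.204 CPM in any of the 16 libraries.

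Complement regulators lay on both sides of 0. Of 11 tested, 5 lay above 0 and 6 below, 0 had an unadjusted p below 0.05, and the median log2 fold change was -0.006. The values furthest from 0 were those of Cd55, which accelerates decay of C3 convertases, at -0.39 ± 0.24, and of Cfi, the protease that inactivates C3b and C4b, at 0.24 ± 0.19 (SE). Of the 11, 3 lay above 0 without the libraries with lens transcripts, and the median was -0.077.

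**Figure D1:**
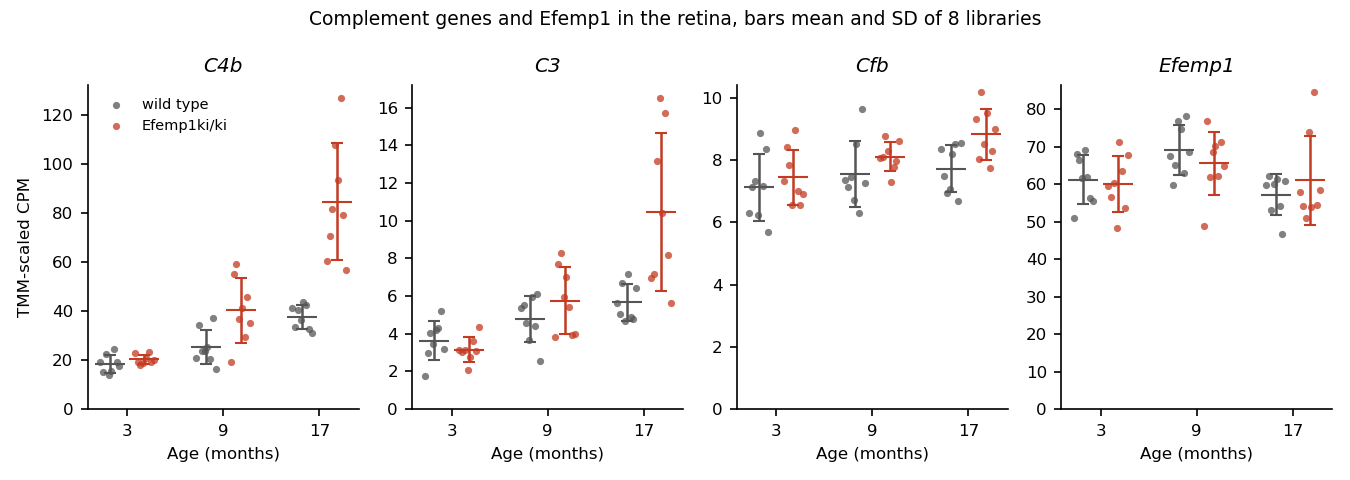
TMM-scaled CPM of C4b, C3, Cfb and Efemp1 in every retina library at 3, 9 and 17 months, wild type in grey and Efemp1ki/ki in red, with bars for the mean and SD of 8 libraries. At 9 months C4b averaged 25.3 CPM in wild type and 40.3 CPM in knock-in with overlapping points, while Cfb and Efemp1 overlapped throughout.

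Genes induced by interferon formed the list with the most members on one side. Of 25 listed, 24 were tested, and all 24 had a log2 fold change above 0. In 15 of them the unadjusted p was below 0.05 (2.81% of all genes were higher at that threshold), and 0 passed adjustment, the lowest adjusted p being 0.796 in edgeR. The median was 0.556. The members' values moved together from library to library, so they are not separate replicates of the difference.

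Irf9, a DNA-binding factor of the interferon response, ran from 15.2 to 20.1 CPM in wild type and from 17.9 to 30.2 CPM in knock-in, so the groups overlapped. Its log2 fold change was 0.36 ± 0.13 (SE, unadjusted p = 0.00685 in edgeR), and that of Stat2, its partner, was 0.11 ± 0.06. Irf7, which amplifies the response, had 0.28 ± 0.12.

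Several effector genes, though not all, had larger values. Oasl2, of the family of oligoadenylate synthetases, ran from 12.7 to 16.4 CPM in wild type and from 13.1 to 42.3 CPM in knock-in (log2 fold change 0.71 ± 0.25, SE). Ifit1, which binds foreign RNA, ran from 2.25 to 4.58 CPM and from 2.45 to 19.0 CPM (1.03 ± 0.45). Ifit3, its partner, ran from 13.3 to 17.5 CPM and from 12.9 to 64.2 CPM (0.76 ± 0.35). In all 3 genes the groups overlapped, and knock-in libraries 3, 4 and 8 held the 3 highest values. Ifit2, of the same family as Ifit1, ran from 11.3 to 15.7 CPM in wild type and from 11.7 to 17.5 CPM in knock-in, with medians of 13.5 and 13.2.

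Knock-in libraries 3, 4 and 8 also held the 3 highest values of Isg15, Usp18, Bst2, Rtp4 and Mx2. Isg15, a ubiquitin-like modifier, ran from 1.55 to 2.65 CPM in wild type and from 1.69 to 6.93 CPM in knock-in (0.79 ± 0.28). Usp18, which removes that modifier, had 0.90 ± 0.37, Bst2, the tether of budding virus, 0.84 ± 0.30, Rtp4 0.88 ± 0.38 and Mx2 1.12 ± 0.43, the highest of the list. Genes of antigen presentation lay closer to 0, with 0.40 ± 0.14 for the immunoproteasome subunit Psmb8, 0.24 ± 0.10 for B2m, 0.13 ± 0.07 for H2-K1 and 0.04 ± 0.07 for H2-D1. In these 4 genes other libraries reached the 3 highest: knock-in library 5 for B2m and H2-D1, and wild-type library 5 for Psmb8, H2-K1 and H2-D1.

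Promoters of 3 members are shown because they carry the letters to which the complex that holds STAT2 and IRF9 is known to bind, the interferon-stimulated response element. The sequences come from RefSeq (GRCm38.p6), run from 250 bases before to 50 bases after the annotated start, and read 5′ to 3′ on the gene's strand. Capitals mark every match to its core, which is GAAA, any 2 bases and GAAA again, on either strand. Isg15 lies at chr4:156200769-156201068 on the minus strand, and Ifit1 at chr19:34640639-34640938 and Ifit3 at chr19:34583279-34583578 on the plus strand.
Isg15: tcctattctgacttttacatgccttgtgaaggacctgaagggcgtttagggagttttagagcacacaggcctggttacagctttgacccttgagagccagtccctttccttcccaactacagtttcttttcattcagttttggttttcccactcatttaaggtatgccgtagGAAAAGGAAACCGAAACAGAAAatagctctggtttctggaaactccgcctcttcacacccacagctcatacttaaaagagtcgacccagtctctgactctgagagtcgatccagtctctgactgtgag
Ifit1: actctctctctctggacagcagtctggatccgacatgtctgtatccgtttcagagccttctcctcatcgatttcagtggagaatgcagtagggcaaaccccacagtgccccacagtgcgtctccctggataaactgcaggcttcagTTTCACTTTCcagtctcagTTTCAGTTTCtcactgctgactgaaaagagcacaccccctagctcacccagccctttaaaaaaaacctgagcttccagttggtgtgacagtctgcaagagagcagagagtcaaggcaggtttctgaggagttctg
Ifit3: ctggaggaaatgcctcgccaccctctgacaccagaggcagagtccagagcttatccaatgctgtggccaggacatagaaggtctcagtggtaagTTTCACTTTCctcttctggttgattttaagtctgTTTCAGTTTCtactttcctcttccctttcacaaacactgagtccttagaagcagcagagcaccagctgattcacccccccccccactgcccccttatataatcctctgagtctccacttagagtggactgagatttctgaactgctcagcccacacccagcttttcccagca
The Isg15 promoter held 3 overlapping matches, which began 78, 72 and 66 bases before the start. Ifit1 held matches 104 and 85 bases before the start, and Ifit3 at 156 and 122 bases. The core occurred in 9 of the 19 interferon-induced genes that had a promoter in the table (B2m, Bst2, Ifih1, Ifit1, Ifit3, Isg15, Oas1a, Rsad2 and Stat2) and in 1131 of all 32851 promoters (3.44%). The gamma-activated site TTCNNNGAA, also read on both strands, occurred in 4 of those 19 genes (Bst2, Ifit2, Oas1a and Psmb8) and in 8.3% of all promoters. These matches describe letters and were not tested as binding sites. Ifih1, whose match lies after the start, had a log2 fold change of 0.27 ± 0.17.

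The interferon-induced genes were high in 3 of the 8 knock-in libraries. The mean level of the list was 2.38 to 2.65 log2 CPM in the 8 wild-type libraries. It was 3.38 in knock-in library 3, 3.24 in library 4 and 3.74 in library 8. Libraries 5 and 7 were slightly above the wild-type range at 2.76 and 2.71, and libraries 2, 6 and 9 were inside it at 2.38, 2.54 and 2.51. Of the 24 genes, 21, 20 and 22 exceeded every wild-type library in knock-in libraries 3, 4 and 8. The same count was 11 and 8 in libraries 5 and 7 and at most 2 in libraries 2, 6 and 9. A wild-type library exceeded the other 7 in 2 to 5 genes. Without knock-in library 8 the genes at an unadjusted p below 0.05 numbered 7 of 24 and the median was 0.32.

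**Figure D2:**
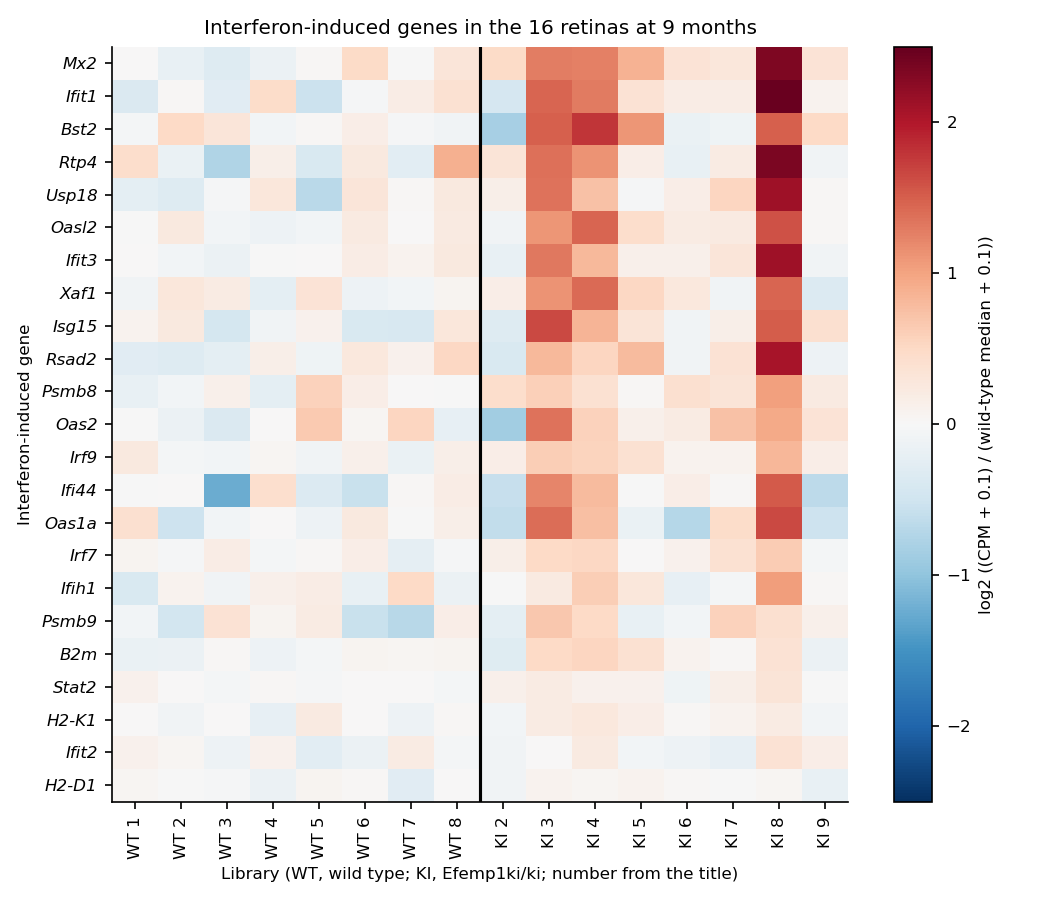
Heat map of tested interferon-induced genes (rows) in the 16 libraries (columns), as the log2 ratio of CPM to the wild-type median with 0.1 CPM added to both. Knock-in libraries 3, 4 and 8 are red over most rows, and libraries 5 and 7 over fewer.

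Knock-in libraries 3, 4 and 8 were also among the 5 with lens transcripts. Knock-in library 6, which had the highest lens level (5.84 log2 CPM), had an interferon list mean of 2.54, inside the wild-type range. Wild-type library 4 (lens 1.59), which is itself part of that range, had 2.52. With all 5 left out, 0 of the 24 genes had an unadjusted p below 0.05, 18 lay above 0 and the median was 0.09. Of all 17240 genes, 363 were at that threshold in this fit. It also leaves out knock-in libraries 3, 4 and 8, where the list was highest, so it cannot tell lens transcripts from those libraries. With the mean levels of pigment epithelium, lens and rod genes as covariates, all 24 lay above 0, 8 had an unadjusted p below 0.05 and the median was 0.50. Genes of the retinal pigment epithelium, the layer behind the retina, had a list mean of 2.00 to 3.35 log2 CPM in wild type and 2.5 to 3.90 in knock-in, with the highest value in knock-in library 8 and 3.08 in both libraries 3 and 4. The part of this neighbouring tissue in the interferon result was not tested. The summed level of microglia and macrophage genes was 137 to 167 CPM in wild type and 129 to 172 CPM in knock-in, with a list median of -0.006. These ranges do not give the level in libraries 3, 4 and 8 by themselves, and the part of these cells was not tested either.

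**Figure D3:**
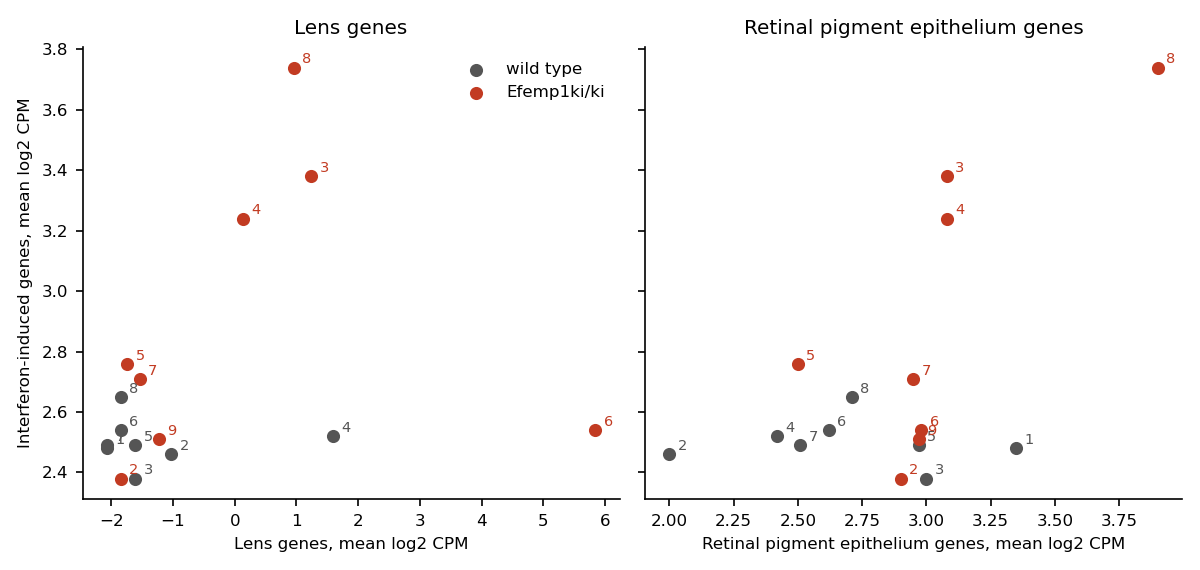
Mean log2 CPM of the interferon-induced genes in each library (vertical) against that of lens genes (left) and retinal pigment epithelium genes (right), wild type in grey and Efemp1ki/ki in red, numbered as in the titles. Knock-in libraries 3, 4 and 8 lie above 3.2 on the vertical axis, while knock-in library 6, furthest right for lens genes, lies at 2.54.

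Single retinas with high interferon-induced genes also occurred at other ages and in wild type. The list mean reached 3.24 log2 CPM in 1 wild-type retina at 3 months and 3.18 in wild type at 17 months, against group medians of 2.27 and 2.68. In knock-in retinas it ran from 2.10 to 2.73 at 3 months and from 2.67 to 4.25 at 17 months. The median log2 fold change of the list was -0.131 at 3 months, 0.556 at 9 months and 0.403 at 17 months.

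The 10 genes with the smallest p-values in the higher direction, with predicted genes left out, none of which passed adjustment (all at an adjusted p of 0.722 to 0.796), were led by Dusp4, a phosphatase that switches off MAP kinases. It ran from 25.4 to 41.6 CPM in wild type and from 38.2 to 50.9 CPM in knock-in (log2 fold change 0.31 ± 0.08, SE, unadjusted p = 0.000291). C4b followed. Mief1, a receptor for the mitochondrial fission factor, ran from 34.5 to 40.5 CPM and from 37.2 to 43.6 CPM (0.15 ± 0.04). Rrp12, a ribosome assembly factor, had 0.22 ± 0.06, Txlna, a syntaxin-binding protein, 0.16 ± 0.05, Scly, a selenium recycling enzyme, 0.22 ± 0.06, and the ribosomal protein gene Rpl13a 0.21 ± 0.06. In all of these the groups overlapped.

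Trim25 and Lgals9 were also among the 10 and are genes that interferon can induce, though neither was on the list above. Trim25, the ubiquitin ligase that activates the RNA sensor RIG-I, ran from 39.5 to 46.3 CPM in wild type and from 43.1 to 54.2 CPM in knock-in (0.18 ± 0.05). Lgals9, which encodes galectin-9, ran from 2.65 to 3.31 CPM and from 2.14 to 7.21 CPM (0.60 ± 0.17). Both were highest in knock-in library 8, and for Lgals9 libraries 4 and 3 came next, at 5.93 and 4.73 CPM. The largest fold changes in this direction belonged to the lens genes Cryba2 (4.98), Crygs (4.93) and Cryaa (4.81). Knock-in library 6 carried most of these folds: without it they were 1.38, 1.14 and 1.25, with unadjusted p of 0.357, 0.45 and 0.396 in edgeR. Cryba2 was at most 0.17 CPM in 7 wild-type libraries and reached 2.00 CPM in wild-type library 4.

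In the lower direction, leaving out predicted genes and clones, the smallest p-value was that of Ndst4, an enzyme that sulfates heparan sulfate chains. It ran from 4.42 to 7.11 CPM in wild type, with a median of 6.28, and from 4.22 to 5.17 CPM in knock-in, with a median of 5.04 (log2 fold change -0.34 ± 0.09, SE, unadjusted p = 0.000483). Only wild-type library 6 lay inside the knock-in range. Hepacam, a glial adhesion protein, ran from 2.95 to 4.61 CPM and from 2.28 to 3.72 CPM (-0.37 ± 0.11). Cast, the inhibitor of calpain proteases, had -0.25 ± 0.07, and Dach1, a transcription factor, -0.25 ± 0.07. Dach1 was at 52.6 ± 9.10 CPM in wild type and 44.4 ± 4.21 CPM in knock-in (SD).

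The rest of the 10 lower genes were Map7d2 (-0.14), Alox12b (-0.38), Plppr5 (-0.22), Zfp385b (-0.15), Mospd2 (-0.28) and Pgm1 (-0.27). Among them Alox12b is an epidermal lipoxygenase and Pgm1 a phosphoglucomutase of glycogen metabolism. The most negative fold changes among named genes with a mean of at least 0 log2 CPM at an unadjusted p below 0.05 were those of Ccdc80 (-0.62 ± 0.23), a matrix protein, Tex11 (-0.62 ± 0.25), a meiosis gene, and Ssc4d (-0.61 ± 0.20), all with a wild-type mean below 2 CPM. The genes at that threshold had a median transcript GC content of 53.3% where higher and 43.8% where lower, against 49.5% over all genes tested. A fit corrected for GC content also called 0 genes, with 1095 at that threshold.

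The libraries of the genotypes did not overlap for 2 genes (0.0116% of those tested). Fam207a, a nucleolar protein gene, ran from 22.9 to 27.9 CPM in wild type and from 28.1 to 30.6 CPM in knock-in (log2 fold change 0.14 ± 0.05, SE, unadjusted p = 0.0135 in edgeR). The unnamed transcript RP24-316F13.7 ran from 1.07 to 1.49 CPM and from 0.61 to 0.97 CPM (-0.60 ± 0.20, unadjusted p = 0.00341). Neither passed adjustment (adjusted p = 0.796 for both).

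Photoreceptor genes had values near 0. Of 19 rod phototransduction genes tested, 13 lay above 0 and 0 had an unadjusted p below 0.05. Their log2 fold changes ran from -0.033 to 0.109 with a median of 0.011, and all 19 intervals lay inside ±0.5. Of 15 cone genes 0 had an unadjusted p below 0.05 and the median was 0.017, or -0.034 without the libraries with lens transcripts. The blue cone opsin Opn1sw averaged 375 ± 31.1 CPM in wild type and 375 ± 38.8 CPM in knock-in (SD), and the green cone opsin Opn1mw had a log2 fold change of 0.06 ± 0.07 (SE). None of 19 outer segment and cilium genes or 18 ribbon synapse genes had an unadjusted p below 0.05, with medians of 0.004 and 0.022.

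Among 13 photoreceptor transcription factors the median was -0.026, and 2 were lower at an unadjusted p below 0.05 (3.26% of all genes were lower at that threshold). Neurod1, a survival factor of photoreceptors and amacrine cells, was at 340 ± 49.7 CPM in wild type and 301 ± 31.1 CPM in knock-in (SD, log2 fold change -0.17 ± 0.06, SE). Mef2c had -0.15 ± 0.07. With the libraries that held lens transcripts left out, 0 of the 13 were at that threshold. The rod determinant Nrl and the pan-photoreceptor factor Crx had 0.03 ± 0.04 and -0.02 ± 0.04.

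Of the inner retinal lists, those of ganglion and amacrine cells lay slightly below 0, and those of bipolar and horizontal cells near 0. Of 20 ganglion cell genes 17 were below 0, with a median of -0.081, and 2 had an unadjusted p below 0.05, among them Stmn2, a growth-associated regulator of microtubules (-0.14 ± 0.05, SE). Over all genes 50.3% lay above 0, and 3.26% were lower and 2.81% higher at that threshold. Of 19 amacrine cell genes 17 were below 0 with a median of -0.055, and Tfap2a (-0.23 ± 0.08) and Ebf3 (-0.15 ± 0.05) had an unadjusted p below 0.05. Th, the tyrosine hydroxylase of dopaminergic amacrine cells, went the other way, from 2.35 to 4.04 CPM in wild type and from 3.07 to 5.06 CPM in knock-in (0.31 ± 0.11, unadjusted p = 0.00898 in edgeR). Without the libraries with lens transcripts 0 genes of either list were lower at an unadjusted p below 0.05, and the medians were -0.057 for ganglion cell and -0.027 for amacrine cell genes, with 16 of 20 and 13 of 19 below 0. Bipolar cell genes had a median of -0.007 with Bhlhe23 higher (0.15) and Isl1 lower (-0.12) at that threshold, and horizontal cell genes a median of 0.009 with Calb1 lower (-0.16). Without those libraries the bipolar median was 0.008 and the horizontal median -0.005.

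Of 19 homeostatic genes of Mueller glia, the radial glia of the retina, 15 lay below 0 with a median of -0.029, and 3 were lower at an unadjusted p below 0.05 (3.26% of all genes were): Slc1a3, the glutamate transporter (-0.09 ± 0.04, SE), Car2 (-0.09 ± 0.04) and Gpr37 (-0.09 ± 0.04). The glutamine synthetase gene Glul had -0.03 ± 0.04. Without the 5 libraries with lens transcripts 18 of the 19 lay below 0 with a median of -0.069, and 0 were at that threshold. Of 21 genes of gliosis and stress cytokines 17 lay above 0 with a median of 0.099. Stat3, a mediator of gliosis, had 0.10 ± 0.04 (unadjusted p = 0.0115 in edgeR), and Gfap, the filament protein of reactive glia, 0.16 ± 0.14. Without those libraries 7 of these 21 lay above 0 and the median was -0.064. Of 23 microglia and macrophage genes 0 had an unadjusted p below 0.05, and Cx3cr1 had -0.06 ± 0.10. The median of these 23 was -0.006, or -0.115 with 3 above 0 without those libraries.

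Among stress lists, immediate early genes had the highest median. Among 29 genes of the unfolded protein response the median was 0.020, with Chac1, a glutathione-degrading target of ATF4 (0.69 ± 0.33, SE), and Manf (0.14 ± 0.07) at an unadjusted p below 0.05. Over all genes 6.07% were at that threshold in either direction. Among 28 immediate early genes 18 lay above 0 with a median of 0.119, and Dusp4 and Klf4 (0.37 ± 0.17) were at that threshold. Their median was 0.012 without the libraries with lens transcripts and 0.017 on log2(TPM + 1). Of 17 cell death genes the median was 0.028, with the p53 target Cdkn1a at 0.41 ± 0.17. None of 12 NF-kB genes, 15 heat shock genes or 32 nuclear genes of oxidative phosphorylation had an unadjusted p below 0.05. Without the libraries with lens transcripts the unfolded protein response had a median of 0.001, and 0 of its genes or of the cell death genes were at that threshold. The NF-kB median was then -0.073, against 0.006 with all libraries. Clock genes had a median of -0.012, with Nr1d2 (-0.16 ± 0.07) and Arntl (-0.08 ± 0.04) at that threshold, and of -0.039 without those libraries.

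Efemp1 belongs to the matrix genes. Of 20 fibulin and elastic fibre genes and 22 matrix proteases and inhibitors 0 had an unadjusted p below 0.05, with medians of 0.030 and 0.013. The medians were -0.145 (3 of 20 above 0) and -0.021 without the libraries with lens transcripts. Timp3, an inhibitor that binds fibulin-3, averaged 123 ± 14.9 CPM in wild type and 127 ± 20.9 CPM in knock-in (SD). Of 21 basement membrane genes 1, Nid1, was at that threshold (0.36 ± 0.15, SE), with knock-in library 6 at 8.19 CPM and the other 15 libraries at 2.27 to 3.93 CPM. The basement membrane median was 0.042, or 0.010 without the libraries with lens transcripts, where 0 genes were higher and 2 lower at that threshold. Of 24 endothelial and pericyte genes 17 lay above 0 with a median of 0.091, and 4 were higher at that threshold (2.81% of all genes were): Vwf (0.27 ± 0.10), Tie1 (0.25 ± 0.11), Cldn5 (0.25 ± 0.11) and Mfsd2a (0.32 ± 0.14), all made by endothelium. Without the libraries with lens transcripts 14 lay above 0 with a median of 0.034 and 2 at that threshold, and with neighbouring-tissue covariates 2 were. Of 24 ribosomal protein genes 23 lay above 0 with a median of 0.077. The median was 0.047 without the libraries with lens transcripts (21 above 0), 0.035 on log2(TPM + 1) (18) and 0.028 with neighbouring-tissue covariates (20). Of 9 mitochondrially encoded genes 9 lay below 0 with a median of -0.049, but 7 of 9 lay above 0 with GC content corrected, 8 on log2(TPM + 1), 7 with surrogate variables, 7 without libraries standing apart and 9 without the libraries with lens transcripts.

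Lists of genes of neighbouring tissue gave the largest medians. All 10 lens genes tested had an unadjusted p below 0.05 in edgeR (2.81% of all genes were higher at that threshold) and the median was 4.406. In limma voom, voom with quality weights and on log2(TPM + 1) 0 of the 10 did, with medians of 2.027, 2.475 and 1.381. The summed lens level was 2.28 to 57.0 CPM in wild type and 3.23 to 1310 CPM in knock-in, so the groups overlapped. Corneal and conjunctival epithelial genes had a median of 0.654 with 3 of 14 at that threshold, among them Krt15 (2.30 ± 0.73, SE), and 0 of 14 in limma voom with a median of 0.327. Melanin genes had a median of 0.562 and pigment epithelium genes 0.498, with 0 of 9 and 2 of 15 at that threshold. Without the 5 libraries with lens transcripts the melanin median turned to -0.34 (0 of 9 above 0) and the pigment epithelium median was 0.066. With neighbouring-tissue covariates they were -0.116 and -0.002. Rpe65, the isomerase of the visual cycle, had 0.71 ± 0.41.

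**Figure D4:**
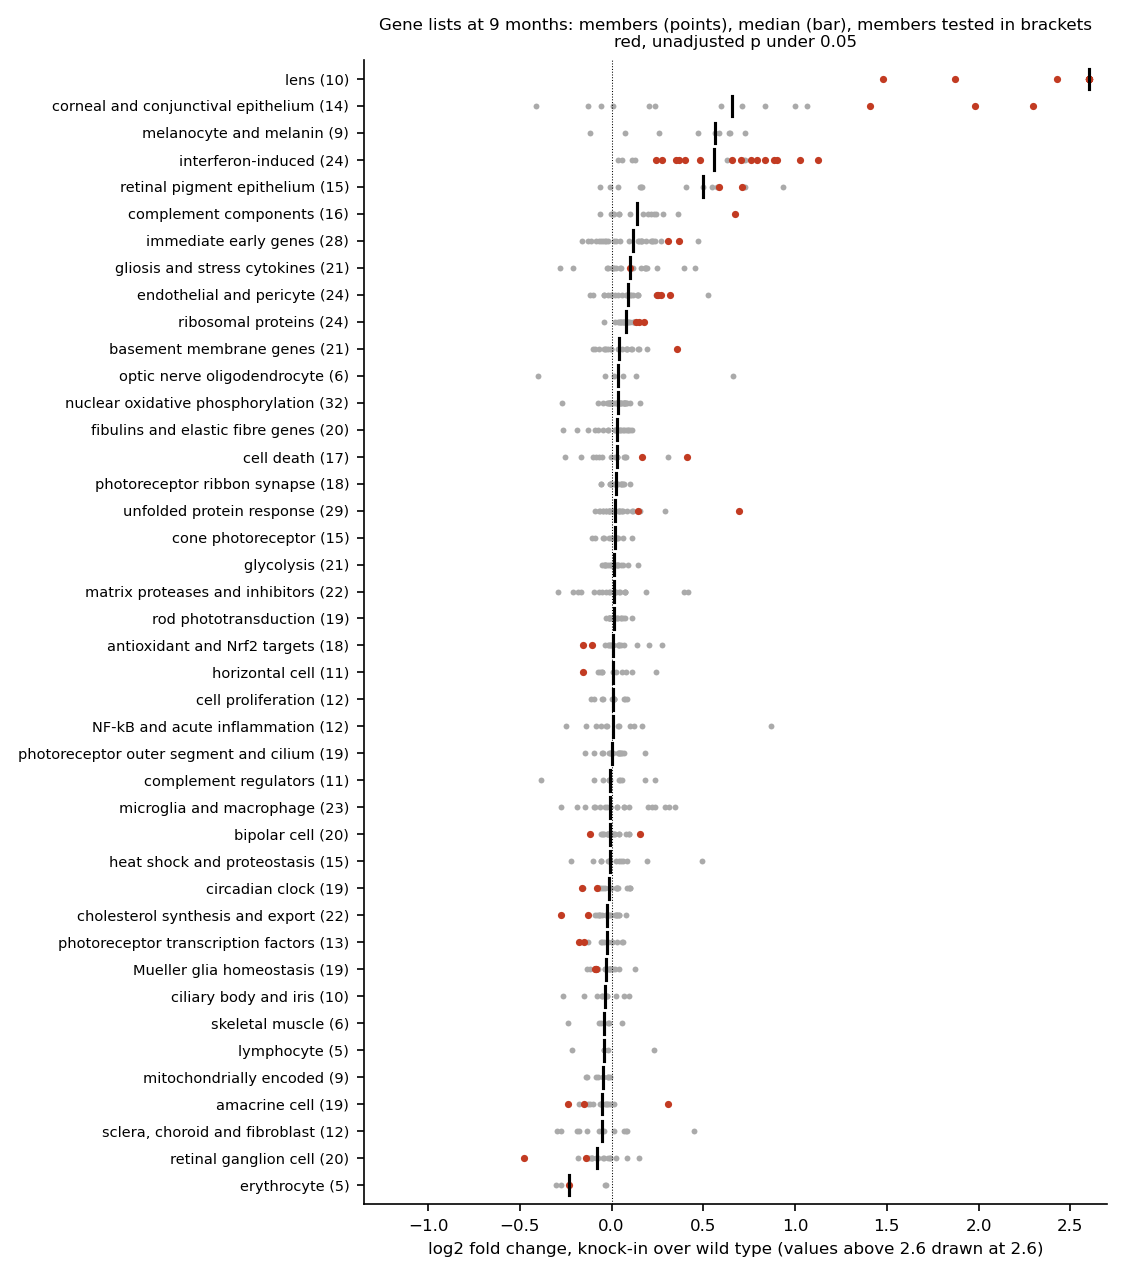
Log2 fold change of every tested member (points) and the median (bar) of 42 gene lists at 9 months, ordered by median, with members at an unadjusted p under 0.05 in red and values above 2.6 drawn at 2.6. Interferon-induced genes are the list outside neighbouring tissue with the highest median (0.556), and photoreceptor lists sit at 0.

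The 9-month difference was set against those at 3 and 17 months, which share no libraries with it, through interaction terms in the same fit. Between 3 and 9 months the genotype difference itself changed in 3 genes (0.0174%), and 2653 had an unadjusted p below 0.05 (15.4%). Asun, an Integrator subunit, had a genotype difference of 0.21 at 3 months and -0.10 at 9 months (change -0.31 ± 0.06, SE, adjusted p = 0.0281 in edgeR). The predicted gene Gm43681 went from 0.74 to -0.16 (-0.90 ± 0.17, adjusted p = 0.0281), and 3110035E14Rik from 0.46 to -0.65 (-1.11 ± 0.22, adjusted p = 0.0466). Without the filter on low counts 0 genes passed, with 3307 at an unadjusted p below 0.05.

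In Asun, knock-in retinas were higher in range than wild type at 3 months (63.7 to 83.7 CPM against 60.7 to 69.1 CPM). They were lower in range at 9 months (70.2 to 84.0 CPM against 79.3 to 87.0 CPM), and the groups overlapped at both ages. The wild-type mean moved from 63.9 to 82.6 CPM between these ages and the knock-in mean from 73.7 to 77.0 CPM. In 3110035E14Rik the 9-month ranges were 1.49 to 2.22 CPM in wild type and 0.76 to 1.51 CPM in knock-in, touching at 1 library. From 9 to 17 months the change was called for 0 genes (0%), with 1485 at an unadjusted p below 0.05 (8.61%) in edgeR, and DESeq2 also called 0, with 1538.

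The genes called at 3 months had small values at 9 months. Of 316, 163 had the same sign at 9 months, 11 had an unadjusted p below 0.05 in the same direction and 7 in the opposite one (6.07% of all genes in either direction). Their median absolute log2 fold change was 0.26 at 3 months, and in that direction 0.002 at 9 months. Sik1, an activity-dependent kinase, had 0.71 at 3 months and 0.16 ± 0.11 (SE) at 9 months, Nr4a1, an immediate early receptor, 0.82 and 0.15 ± 0.14, and Tnfrsf25 1.11 and 0.16 ± 0.17. The interaction had an unadjusted p below 0.05 in 266 of the 316, but these genes were chosen for their 3-month value, so this count is a description.

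Of the 70 genes called at 17 months 55 had the same sign at 9 months, 5 had an unadjusted p below 0.05 in the same direction and 0 in the opposite one. Over all genes 6.07% were at that threshold in either direction. The median absolute log2 fold change of the 70 was 0.22 at 17 months and, in that direction, 0.04 at 9 months. The interaction had an unadjusted p below 0.05 in 58 of the 70, again a description, as they were chosen for their 17-month value. C4b had a genotype difference of 0.14 ± 0.18 at 3 months, 0.67 ± 0.17 at 9 months and 1.17 ± 0.16 at 17 months, where it was called (SE, adjusted p = 0.000147 in edgeR). Its change from 9 to 17 months was 0.49 ± 0.24 (unadjusted p = 0.042, adjusted p = 0.57). C3 had 0.28 ± 0.21 at 9 months and 0.90 ± 0.19 at 17 months (adjusted p = 0.0415). Trim25, called at 17 months with 0.21, had 0.18 at 9 months.

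**Figure D5:**
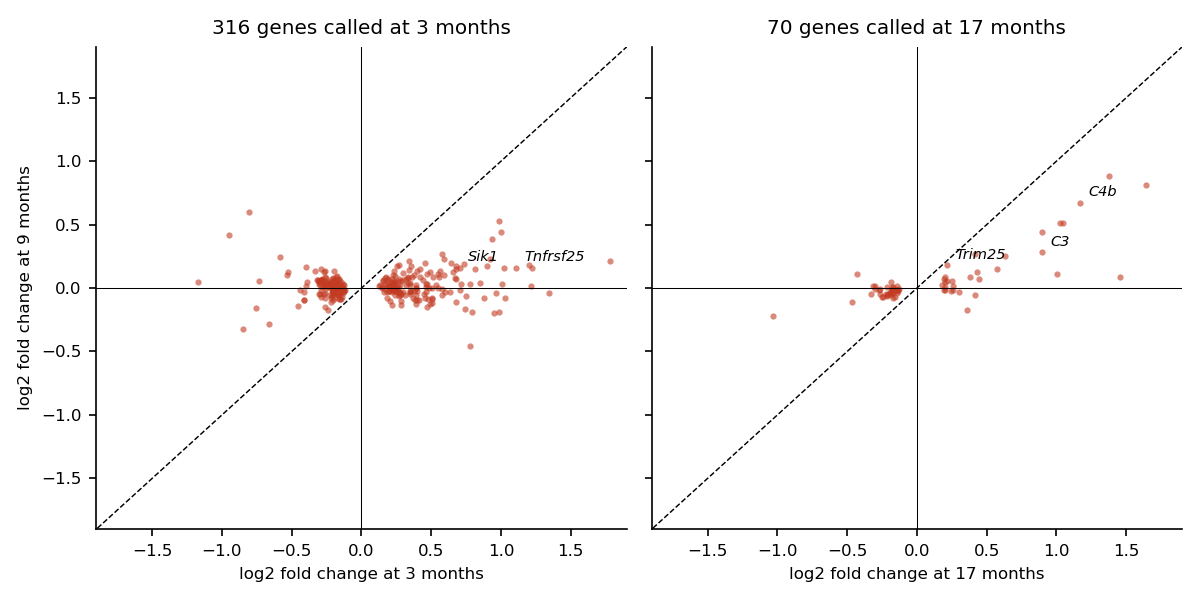
Log2 fold change at 9 months (vertical) against that at the age of the call, for 316 genes called at 3 months (left) and 70 called at 17 months (right), with the dashed line marking equal values. The 3-month genes lie along 0 on the vertical axis, while C4b lies at 0.67 for 1.17 at 17 months.

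The posterior eyecup at 9 months called 1 gene of 18003 (0.00555%), Alb, which encodes plasma albumin, with a log2 fold change of -6.13 ± 1.09 (SE, adjusted p = 0.0267 in edgeR). Alb was at most 1.23 CPM in wild-type and 0.0686 CPM in knock-in retinas. The interferon-induced genes had a median of 0.15 in the eyecup, with 18 of 24 above 0 and 0 at an unadjusted p below 0.05 (1.38% of all genes there), and C4b had 0.04 ± 0.14. Cfb had 0.43 ± 0.21 in the eyecup (unadjusted p = 0.0458, adjusted p = 1.0 in edgeR), the 1 of 15 complement components tested there at that threshold, and C3 had 0.35 ± 0.20. The difference between tissues was called for 0 of 19210 genes (0%), with 352 at an unadjusted p below 0.05 (1.83%) in edgeR. DESeq2 called 1 gene there, the lens gene Crygd, and limma voom with quality weights 1, Pcdhgc4. In the 9-month retinas Crygd was near the floor, at 0 CPM in every wild-type library. Its knock-in median was 0 CPM and its knock-in maximum 0.412 CPM.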

How the data were processed

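Poly(A) RNA of neural retina from female mice was sequenced as 1 library per sample, in groups taken from the titles. A stranded TruSeq mRNA kit was used on DNase-treated column-purified RNA, per the labels' protocols. The genome build is GRCm38.p4, per the submitters' processing notes, and the aligner, counter and strand setting were not given in the sources used here. Per gene, the authors deposited estimated counts (30235 genes). Of these values 37.86% had a fractional part, and all were rounded here. The authors' deposited TPM table scales protein-coding genes to 1000000 per library, so it was handled as a score in 1 alternative. No label matched 1 column of either file, which was left out.

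Genes passing edgeR's expression filter in the 48 retina libraries were fitted in R 4.3.3 with edgeR 4.0.16 (TMM, robust quasi-likelihood, 6 age and genotype groups), with Benjamini-Hochberg adjustment over all genes and a threshold of 0.05. Eyecups at 9 months were fitted separately, and the tissues were compared in a joint fit of all 93 libraries. CPM values are TMM-scaled and intervals are at 95%. The named genes are Efemp1, Cfb and tested complement components, the 10 smallest p-values and 3 largest fold changes in each direction among genes without a predicted-gene name and with a mean of at least 0 log2 CPM, non-overlapping genes, the leading and defining members of each described list, called interactions, and leading genes called at other ages or in the eyecup. Only some of the genes so chosen are printed, and a few are not reported here. The members and gene lists were chosen with earlier results of these data known. Alternatives used DESeq2 1.42.0, limma 3.58.1 and sva 3.50.0, other scalings and filters, GC offsets, covariates, a replicate block and libraries left out, and leaving out the libraries with lens transcripts was chosen after seeing the data. The scripts were tested on simulated data.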

Additional observations from a re-analysis of the deposited data

Results flagged for a closer look

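In 12 of 182 groups of 8 libraries 1 library lay far from the rest of its group by Dixon's test (gap over range above 0.526), and chance flags about 1 in 20 groups. In wild type, library 4 was highest for the lens genes Cryba2 (1.08 log2 CPM, next -1.85) and Crygs (1.61, next -1.85), library 2 was highest for Alox12b (2.06, next 1.82), and library 7 was lowest for Fam207a (4.52, next 4.71). In knock-in, library 6 was highest for Cryba2 (5.99 log2 CPM, next 1.21), Zfp385b (6.53, next 6.39) and Nid1 (3.05, next 2.02). Knock-in library 7 was highest for Ebf3 (5.47 log2 CPM, next 5.37) and Manf (5.07, next 4.90), library 5 for Vwf (4.18, next 3.87) and library 8 for Rpe65 (4.42, next 2.87). Knock-in library 3 was lowest for Mfsd2a (0.97 log2 CPM, next 1.45).

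The genotype difference at 9 months differed from that at 3 months, by the interaction term in edgeR, for Asun (-0.31 ± 0.06, SE, adjusted p = 0.0281), Gm43681 (-0.90 ± 0.17, adjusted p = 0.0281) and 3110035E14Rik (-1.11 ± 0.22, adjusted p = 0.0466).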

How the results depend on the processing

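At 9 months 0 genes were called in each of the 30 alternatives, and leaving out single libraries gave 0 to 0 calls with 736 to 1564 genes at an unadjusted p below 0.05. That number was 1589 with a replicate block, 1994 in limma voom with quality weights and 363 without the libraries with lens transcripts. Interferon-induced genes at that threshold numbered 8 with neighbouring-tissue covariates, 9 with surrogate variables, 0 without the libraries with lens transcripts, and 7 to 18 with single libraries left out, lowest without knock-in library 8. The change from 3 to 9 months was called for 0 genes with no filter, 7 with the replicate block, 14 in DESeq2 and 353 in limma voom with quality weights, and the difference between tissues for 1 gene each in DESeq2 and limma voom with quality weights. The cause of these shifts was not tested. Same-numbered libraries of the genotypes did not deviate together at 9 months (correlations of -0.122 to 0.0336 over 7 pairs, 0 of them best matched to its own number). Whether the number marks a shared processing step was not tested. With the replicate block 17 interferon-induced genes were at an unadjusted p below 0.05.

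Of 2742 pairs of a gene and an alternative, 2721 had the same direction and side of the threshold, 3 were weaker and 18 reversed, in 12 genes. Without the libraries with lens transcripts the reversed log2 fold changes were C3 -0.02, C2 -0.183, C1ra -0.019, Ifit3 -0.004, H2-D1 -0.027, Cryaa -1.004, Opn1mw -0.069, Gfap -0.083 and Cx3cr1 0.049. With neighbouring-tissue covariates they were C2 -0.09, Crygs -0.414, Gfap -0.031 and Rpe65 -0.056, and with surrogate variables C2 -0.045, Crygs -0.682 and Cryaa -0.608. H2-D1 was -0.005 on log2(TPM + 1), and Nrl -0.011 with the replicate block and GC offsets. Low counts limit the scarce genes: intervals lay inside ±0.5 for 4.64% of those with a mean below 0 log2 CPM.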
